A study of Mus musculus with 16 samples.

Results

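The immediate early genes Fos, Fosb, Fosl1, Fosl2, Jun, Junb, Jund, Egr1, Ier2 and Ier3 were followed in B16F10 tumors of lean and obese mice before and after etoposide (ETS). The members are these 10 genes, taken by name from the 45777 genes of the deposited table, and all 10 were among the 16209 genes with a count above 0 in every tumor. B16F10, a melanoma line of C57BL/6 origin, had been injected under the skin of lean C57BL/6J mice and of ob/ob mice, which lack working leptin and become obese, at an age of 6 weeks. By the paper's account, tumors were taken before therapy or after 5 injections of ETS at 20 mg per kg. ETS, a topoisomerase inhibitor that breaks DNA, was given once tumors had reached about 100 mm3. The sample labels call the tumors before therapy ctrl, and no vehicle treatment is named for the sequenced tumors. If they were taken before therapy, the comparisons called ETS effects here cannot be told apart from effects of longer tumor growth. The methods place collection a day after the course, in a passage that follows the account of another mouse model, and the time from death to freezing was not given in the sources used here. Each of the 4 groups (lean before therapy, lean after ETS, obese before therapy, obese after ETS) had 4 tumors, all grown from the same line, and the RNA came from whole tumors with the host cells in them. The labels number the tumors of a group without saying that each came from a separate mouse, so that p-values measure the spread between these tumors.

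Immediate early genes are switched on by growth factor, stress and damage signals without new protein synthesis, mostly through MAP kinases acting on SRF, ternary complex factors and CREB. Fos and Jun proteins pair through their leucine zippers into AP-1, which binds the site TGANTCA, and Jun proteins can also pair with each other. Egr1 is a zinc finger factor that binds GC-rich sites and is held back by the corepressors Nab1 and Nab2. Ier2 is a short nuclear protein, and Ier3 is a stress-induced regulator of survival and ERK signaling. Their RNAs are short-lived.

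Egr1 was the only member called after ETS in lean tumors, where it fell to 22.3% of its level before therapy, and Fosl1 the only member called after ETS in obese tumors, where it rose 14-fold, most of all in 1 tumor. The effect of ETS on Egr1 differed between hosts. Before therapy, obese tumors had less Egr1 and 2.42-fold more Ier3 than lean tumors. Fos, Jun, Junb, Jund, Fosb, Fosl2 and Ier2 were not called in any of the 5 comparisons. The share of members called was below the share of all genes called in 4 of the 5 comparisons and above it only between obese and lean tumors after ETS (1 of 10).

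Total counts per tumor were 59466055 to 61391684 in lean tumors before therapy, 57178259 to 61655287 in lean tumors after ETS, 47199949 to 57245560 in obese tumors before therapy and 51619026 to 60741964 in obese tumors after ETS. The 10 melanocyte markers summed to between 15170 and 38530 CPM (counts scaled to the size of the library) over the 16 tumors. Macrophage markers were higher in lean tumors before therapy (415.6 to 1332 CPM in sum) and obese tumors after ETS (358.8 to 1072 CPM) than in most lean tumors after ETS (50.8 to 424.1 CPM) and obese tumors before therapy (43.6 to 259.2 CPM). In whole tumors, fewer cells of a type and less RNA per cell cannot be told apart. Tumor 4 of the obese ETS group stood apart by its fibroblast markers, with 5902 CPM in sum against 673 to 2023 CPM in the other 3 tumors of its group. Test results of the members that rest on it, and correlations between members, are given without it as well. Levels, family shares, correlations of members with other genes and single genes of the related lists are given with all tumors only. These may rest on it. Tumor 2 of that group had 145.9 CPM of keratinocyte and 431.3 CPM of skeletal muscle markers, against at most 2.97 and 4.32 CPM in the rest of its group. Skeletal muscle markers also reached 345.3 CPM in lean tumors after ETS and 174.6 CPM before therapy.

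The members are compact genes. On the GRCm38.p6 assembly they span 1199 (Ier3, chr17:35821713-35822911) to 21369 bases (Fosl2, chr5:32136472-32157840), and 9 of the 10 are below the median span of 17219 bases of 21769 protein-coding genes. Junb (chr8:84976909-84978748), Jund (chr8:70697739-70700616) and Ier2 (chr8:84661331-84662852) share chromosome 8. Fos is at chr12:85473890-85477274, Fosb at chr7:19302696-19310118 and Jun at chr4:95049036-95052222. Fosl1 (chr19:5447698-5455938) overlaps Ccdc85b, the only such overlap among the members.

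The RefSeq promoter table for this assembly, with 250 bases before and 50 bases after each start site, held 7 members (Jun, Fosl2, Fosb, Jund, Junb, Fos and Ier3). Motifs were searched on both strands. The classical AP-1 letters TGANTCA were in 7.81% of all 32851 promoters and in none of the 7, the cAMP response element TGACGTCA in 1.79% and none, and the CArG box of SRF in 1.63% and none. TGACATCA, a variant bound by Jun and ATF proteins, was in 3.62% of promoters and in that of Jun. The Egr site GCGNGGGCG was in 5.55% of promoters and in those of Fosl2 and Fosb, and TATAAA in 13.6% and in those of Junb and Fos. The TATAAA match of Junb begins at the start site itself, not before it. A match is a description of letters only. Sites outside this window, and the promoters of Fosl1, Egr1 and Ier2, were not searched, so that a count of none covers only these windows. The windows below, of 30 bases each, are shown since they hold the binding letters of AP-1, of Egr1 and of the general machinery in members of the list. Capitals mark the match, and each window reads along the gene's strand.
Jun, chr4:95052249-95052278, minus strand: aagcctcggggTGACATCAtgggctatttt
Fosl2, chr5:32136382-32136411, plus strand: tccggctgcgcGCGGGGGCGgaagggcgcg
Fos, chr12:85473846-85473875, plus strand: cacagcgcttcTATAAAggcgccagctgag
The match begins 45 bases before the start site in Jun, 79 before it in Fosl2 and 33 before it in Fos. None of these 3 genes was called in any comparison.

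In TPM, which scale for transcript length as well as depth and so allow genes to be compared, Ier3 led with a mean of 187.6 over the 16 tumors. Jund followed with 77.5 TPM, Junb with 56.8, Fos with 39.2, Jun with 38.9, Ier2 with 30.2 and Fosl2 with 23.9. Egr1 (4.44 TPM), Fosb (1.18 TPM) and Fosl1 (0.671 TPM) were low. Neighbours in this order overlapped in their ranges over the tumors except Fosl2, whose lowest tumor (16.1 TPM) was above the highest tumor of Egr1 (11.1 TPM). The highest tumor was 2.16 times the lowest for Fos and 2.38 times for Jund, but 9.05 times for Egr1 and 5.03 times for Fosb.

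**Figure D1:**
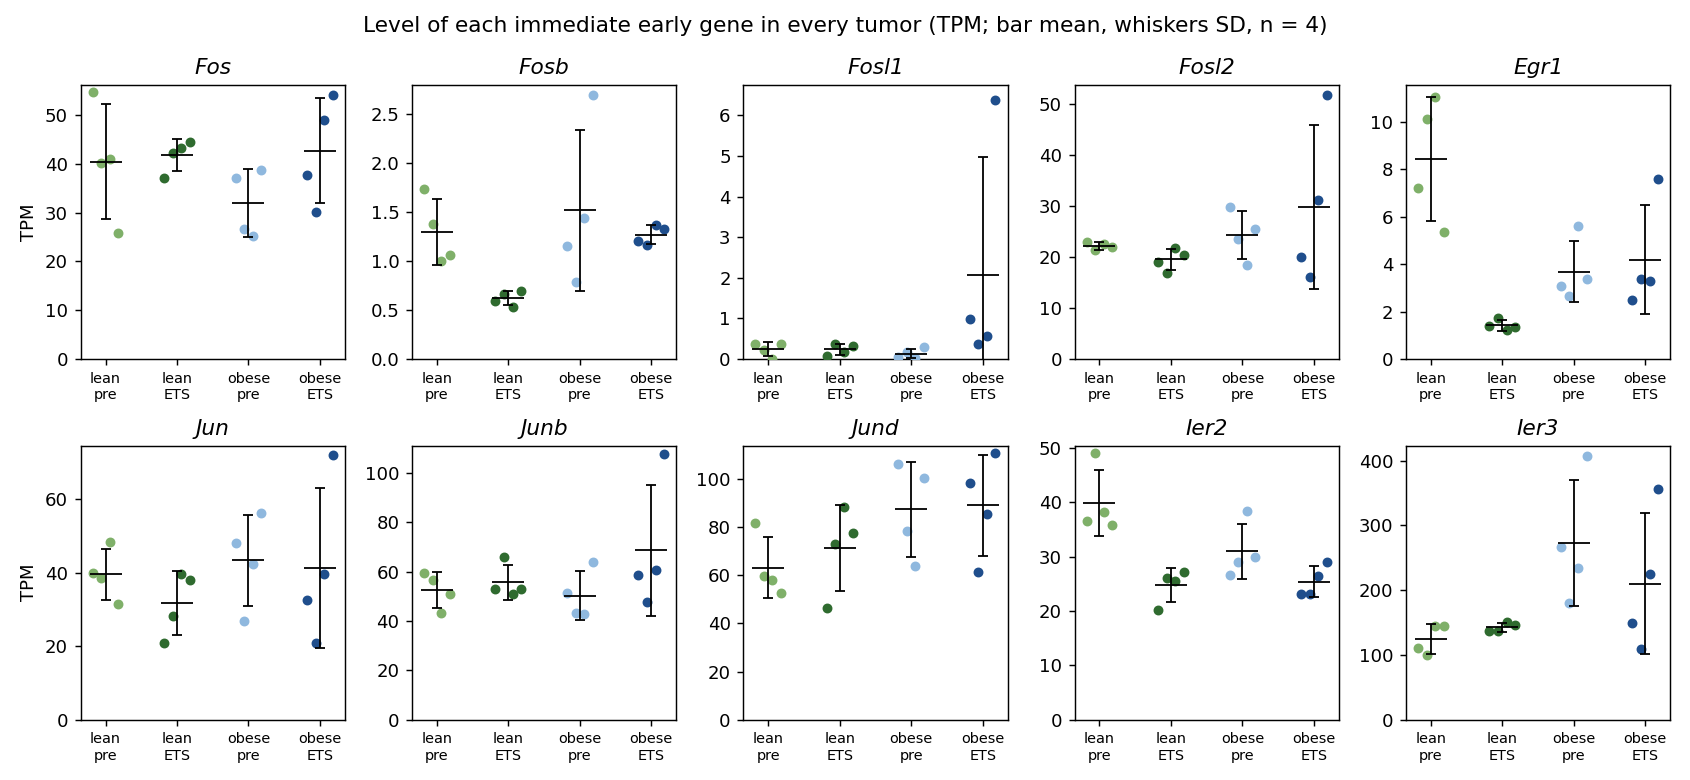
TPM of each of the 10 genes in every tumor (points, 4 per group), with the group mean (bar) and SD (whiskers, cut at 0 for Fosl1). The vertical axes start at 0 and differ between panels. Lean tumors after ETS sit at 1.22 to 1.75 TPM of Egr1, below every other tumor, and 1 obese tumor after ETS reaches 6.39 TPM of Fosl1.

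Egr1 (chr18:34861207-34864956 on GRCm38.p6) was called in 4 of the 5 comparisons. Before therapy, lean tumors held Egr1 at 7.22, 10.1, 11.1 and 5.38 TPM in tumors 1 to 4, and after ETS at 1.38, 1.75, 1.22 and 1.35 TPM. In obese tumors it was at 3.09, 2.68, 5.59 and 3.40 TPM before therapy and at 2.48, 3.40, 3.29 and 7.60 TPM after ETS. Lean tumors thus did not overlap between the time points, with counts of 472 to 956 before and 116 to 182 after, whereas obese tumors overlapped widely.

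The log2 fold change of Egr1 after ETS in lean tumors was -2.16 (SE 0.34, adjusted p = 0.000193, edgeR's quasi-likelihood test with Benjamini-Hochberg adjustment over all 16209 genes). Of all genes tested, 43.8% were called in this comparison at an adjusted p under 0.05, against 1 of 10 members. By non-overlap of CPM between the 4 tumors before and the 4 after, 41.2% of genes were separated, and 2 of 10 members (Egr1 and Ier3) were. In obese tumors the log2 fold change of Egr1 was 0.24 (SE 0.32, adjusted p = 0.581), and without tumor 4 of the obese ETS group it was -0.15. The effect of ETS on Egr1 in obese minus that in lean tumors was 2.40 (SE 0.46, adjusted p = 0.00247), in a comparison that called 16.4% of all genes and 1 of 10 members. This difference kept its call with each tumor left out in turn, with values of 2.04 to 2.68.

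The hosts already differed in Egr1 before therapy. Obese tumors before therapy were at 3.69 ± 1.30 TPM (SD, n = 4) and lean tumors at 8.45 ± 2.62 TPM (SD, n = 4), with tumor 3 of the obese group just above tumor 4 of the lean group. The log2 difference was -1.04 (SE 0.32, edgeR adjusted p = 0.0267). It did not pass the threshold without tumor 2 or 3 of the lean group or without tumor 1, 2 or 4 of the obese group, where adjusted p was 0.0668 to 0.0717 and the difference -1.02 to -0.91. After ETS the order was turned, with 4.19 ± 2.31 TPM (SD, n = 4) in obese and 1.42 ± 0.227 TPM (SD, n = 4) in lean tumors and no overlap. The log2 difference was 1.36 (SE 0.33, edgeR adjusted p = 0.0325). Without tumor 4 of the obese ETS group it was 0.98 (adjusted p = 0.101), and without tumor 1, 3 or 4 of the lean ETS group adjusted p was 0.0613 to 0.0857.

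Macrophage markers and Egr1 were called together in some comparisons only. Of the 10 in the list, 7 fell and 0 rose after ETS in lean tumors, 7 rose and 0 fell in obese tumors, 9 had a higher ETS effect in obese than in lean tumors, 8 were lower in obese tumors before therapy, and 0 were called after ETS (edgeR, adjusted p under 0.05). Egr1 itself was not called after ETS in obese tumors (log2 fold change 0.24), where these markers rose. It was called between hosts after ETS (1.36), where none of the markers was, although their median log2 difference of 1.57 had the same direction. In the lean ETS group the tumors with the most macrophage marker RNA (424.1 CPM in tumor 2) and the least (50.8 CPM in tumor 4) had 1.75 and 1.35 TPM of Egr1. Among lean tumors before therapy, tumor 3 had the lowest macrophage sum (415.6 CPM) and the most Egr1 (11.1 TPM). Tumor 4 of the obese group before therapy had the lowest macrophage sum of all, 43.6 CPM, and more Egr1 (3.40 TPM) than any lean tumor after ETS. In the obese ETS group, tumor 4 had both the highest macrophage sum (1072 CPM) and the most Egr1 (7.60 TPM). T and NK cell markers summed to 38.1 to 66.2 CPM in lean tumors before therapy and to at most 3.54 CPM in any other tumor, and each of these 9 genes had a count of 0 in at least 1 tumor. The part of host cells in the Egr1 values was not tested.

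**Figure D2:**
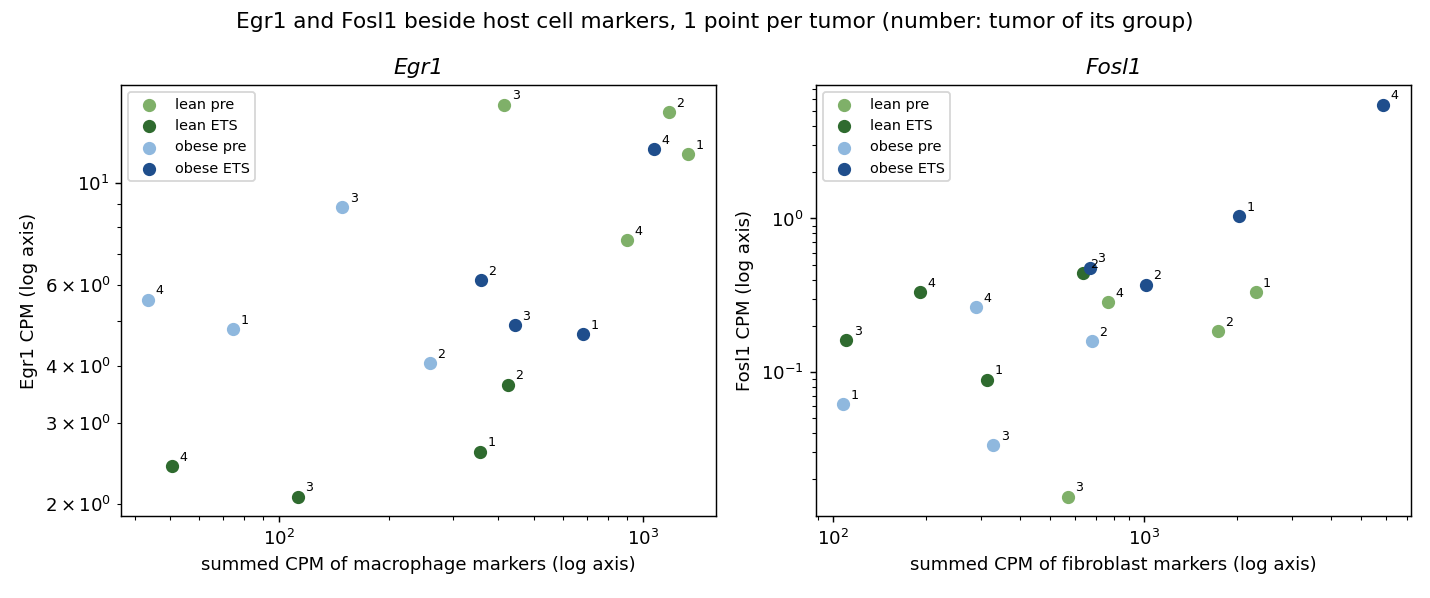
CPM of Egr1 against the summed CPM of 10 macrophage markers (left), and CPM of Fosl1 against the summed CPM of 9 fibroblast markers (right), on log axes. Each point is a tumor, numbered within its group. Lean tumors after ETS lie lowest in Egr1, also beside obese tumors before therapy with fewer macrophage markers, and tumor 4 of the obese ETS group is highest on both axes at right.

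Egr2 and Egr3, close relatives of Egr1 with the same kind of zinc fingers, moved in opposite directions in the hosts. Egr2 was at 3.49, 3.03, 2.38 and 2.81 CPM in lean tumors before therapy and at 0.695, 1.12, 0.537 and 0.263 CPM after ETS. In obese tumors it was at 0.227, 1.10, 1.01 and 0.865 CPM before therapy and at 1.94, 1.28, 1.21 and 4.69 CPM after ETS. No tumor overlapped between the time points in either host. The log2 fold change of Egr2 was -2.16 (SE 0.52, edgeR adjusted p = 0.00386) in lean and 1.51 (SE 0.51, adjusted p = 0.0276) in obese tumors, and the difference of 3.67 was called (adjusted p = 0.00281). For Egr3, named after its values were seen, these log2 values were -1.64 (adjusted p = 0.00228), 1.19 (adjusted p = 0.0183) and 2.83 (adjusted p = 0.00165), with counts of only 14 to 133 per tumor. Egr4 had a count of 0 in at least 1 tumor and was not tested.

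Of the 10 corepressors and targets listed for Egr1, 2 were called up and 2 down after ETS in lean tumors, against 4 up and 0 down in obese ones. This is close to the 43.8% and 40.2% called over all genes, and with limma on log2(TPM + 1) the counts were 1 up and 4 down in the lean host, against 3 and 1 in the obese host. Nab1, a corepressor of Egr1, fell in lean tumors (log2 fold change -0.37, edgeR adjusted p = 0.0125). Thbs1, which codes for the matrix protein thrombospondin 1, fell in lean (-1.07, adjusted p = 0.0487) but rose in obese tumors (1.23, adjusted p = 0.0293), and its difference of 2.30 was called (adjusted p = 0.0149). Sphk1, which makes the lipid signal sphingosine 1-phosphate, rose in both, by 1.99 in lean (adjusted p = 5.85e-05) and by 1.89 in the obese host (adjusted p = 0.000119).

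Fosl1 codes for Fra-1, a Fos family member that lacks the transactivation domain of Fos and is itself a target of ERK and AP-1. Its RNA was scarce. In lean tumors it had counts of 20, 12, 1 and 18 before therapy and of 5, 22, 9 and 19 after ETS. In obese tumors the counts were 3, 8, 2 and 15 before therapy and 57, 18, 30 and 315 after ETS, or 0.0525, 0.168, 0.0270 and 0.286 TPM against 0.982, 0.359, 0.565 and 6.39 TPM. All 4 obese tumors after ETS were above all 4 before therapy, and tumor 4 was far above the rest.

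The log2 fold change of Fosl1 after ETS in obese tumors was 3.81 (SE 0.93, edgeR adjusted p = 0.00517), and without tumor 4 of the obese ETS group it was 2.25 (adjusted p = 0.0224). Of all genes, 40.2% were called in this comparison and 34.2% were separated without overlap, against 1 of 10 members (Fosl1) by either rule. In lean tumors the log2 fold change of Fosl1 was 0.32 (SE 0.92, adjusted p = 0.803). The difference of 3.49 between the hosts was not called (SE 1.31, adjusted p = 0.081), nor was that of 2.86 between obese and lean tumors after ETS (SE 0.87, adjusted p = 0.0637). Without tumor 4 of the obese ETS group these were 1.96 (adjusted p = 0.206) and 1.31 (adjusted p = 0.329). Both were called without tumor 2 of that group (adjusted p = 0.0496 and 0.036), and the latter also without tumor 3 (adjusted p = 0.049). Over the other settings and tests the calls also varied, with an adjusted p for the latter of 0.0136 by DESeq2, 0.0232 by edgeR's exact test and 0.145 by limma-voom. Ccdc85b, whose span overlaps that of Fosl1, rose by 0.64 (adjusted p = 0.0151) after ETS in obese tumors, and reads of the overlap may have been split between them.

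Fibroblast markers rose with Fosl1 in obese tumors but were not called with it in every comparison. In lean tumors after ETS 5 of the 9 fell and 0 rose, against 22.8% and 21% of all genes, and Fosl1 was not called. For all 9 the ETS effect was higher in the obese host (median difference 4.71), against 10.1% of all genes. The difference of Fosl1 had the same direction (3.49) but was not called. Between hosts after ETS 5 of the 9 were higher and 0 lower, against 3.28% and 2.3% of all genes. Their median log2 difference was 2.63, and that of Fosl1, 2.86, was not called. All 9 rose after ETS in obese tumors (edgeR, adjusted p under 0.05), and tumor 4, with the most Fosl1, also had the highest sum of fibroblast markers (5902 CPM), the highest macrophage sum of its group (1072 CPM) and the lowest melanocyte sum of its group (16080 CPM). Lean tumors before therapy with fibroblast sums of 1730 and 2291 CPM had 0.227 and 0.365 TPM of Fosl1, whereas tumor 3 of the obese ETS group with a sum of 673 CPM had 0.565 TPM. The part of fibroblasts in the Fosl1 values was not tested.

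Ier3 was the most abundant member and the one with more RNA in obese tumors before therapy. It was at 110.4, 99.9, 145.1 and 144.8 TPM in lean and at 267.4, 179.9, 234.1 and 407.8 TPM in obese tumors before therapy, so that every obese tumor was above every lean tumor. After ETS, lean tumors were at 137.3, 136.7, 151.1 and 146.5 TPM and obese tumors at 149.8, 109.6, 224.6 and 356.6 TPM. The obese tumors were more scattered than the lean ones at both time points.

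The log2 difference of Ier3 between obese and lean tumors before therapy was 1.27 (SE 0.28, edgeR adjusted p = 0.00351), and it kept its call with each tumor left out (0.99 to 1.44). This comparison called 26.4% of all genes and 2 of 10 members (Ier3 and Egr1), and separated 30.4% of all genes and 1 of 10 members (Ier3). After ETS the difference was 0.37 (SE 0.27, adjusted p = 0.428), and the obese minus the lean ETS effect, -0.91 (SE 0.39, adjusted p = 0.127), was not called with all tumors but was without tumor 4 of the obese ETS group (-1.21, adjusted p = 0.0236). Without that tumor the log2 fold change of Ier3 after ETS in obese tumors was called as well, at -0.66 (adjusted p = 0.0431), against -0.33 (SE 0.27, adjusted p = 0.351) with all tumors. In lean tumors Ier3 had a log2 fold change of 0.57 after ETS (SE 0.27, adjusted p = 0.102), with no overlap in CPM but overlap in TPM. Of 10 melanocyte markers 5 were lower and 0 higher in obese tumors before therapy, against 12.9% and 13.5% of all genes. These markers moved against Ier3 in this comparison, and their part in it was not tested.

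Within the Fos family, Fos itself made up most of the RNA. Its share of the summed TPM of Fos, Fosb, Fosl1 and Fosl2 was 62.1 ± 6.80% in lean tumors before therapy, 67.2 ± 2.25% after ETS, 55.1 ± 2.26% in obese tumors before therapy and 58.4 ± 7.34% after ETS (SD, n = 4 each). Fosl2, which codes for Fra-2, held 35.5 ± 6.61%, 31.4 ± 2.54%, 42.1 ± 3.43% and 37.6 ± 5.71% in the same order. Fosb held 1.004% to 2.61% on average, and Fosl1 at most 5.63%, in tumor 4 of the obese ETS group. The shares of Fos and Fosl2 overlapped between the time points in both hosts.

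Fos was at 25.9 to 54.7 TPM in lean tumors before therapy and at 37.1 to 44.5 TPM after ETS, and at 25.3 to 38.7 and 30.1 to 54.1 TPM in obese tumors. Its log2 fold change after ETS was 0.40 (SE 0.22, edgeR adjusted p = 0.149) in lean and 0.49 (SE 0.22, adjusted p = 0.0906) in obese tumors, with overlap in both. Without tumor 1 of the lean group before therapy, which had the most Fos (54.7 TPM), these were called, at 0.66 (adjusted p = 0.0143) and 0.49 (adjusted p = 0.0429). The difference between hosts was 0.08 (SE 0.31, adjusted p = 0.888).

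Fosb, a paralog of Fos best known for its long-lived splice form, was at 1.74, 1.38, 0.9999 and 1.07 TPM in lean tumors before therapy and at 0.595, 0.663, 0.535 and 0.693 TPM after ETS. On the CPM scale of the test these tumors overlapped, and the log2 fold change of -0.69 was not called (SE 0.33, edgeR adjusted p = 0.106), except without tumor 4 of the obese group before therapy (adjusted p = 0.042). With limma on log2(TPM + 1) it was -0.49 and called (adjusted p = 0.0216), on a scale where the median of all genes was -0.28 after ETS in lean tumors. After ETS, obese tumors were at 1.17 to 1.37 TPM and above every lean tumor (log2 difference 0.86, SE 0.34, edgeR adjusted p = 0.127). The comparison of obese and lean tumors after ETS called 5.58% of all genes and 1 of 10 members (Egr1), and separated 13.2% of all genes and 2 of 10 members (Egr1 and Fosb).

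Fosl2 was at 21.3 to 22.8 TPM in the 4 lean tumors before therapy. After ETS it was at 16.8 to 21.7 TPM in lean and at 16.1 to 51.8 TPM in obese tumors, where tumor 4 was highest. Its log2 fold change in obese tumors was 0.34 (SE 0.23, edgeR adjusted p = 0.244) and -0.01 without that tumor.

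In the Jun family, Jund, which is expressed in resting cells and responds least to growth signals, led in most tumors. It held 40.4 ± 3.14% and 44.4 ± 4.57% of the family's TPM in lean tumors at the earlier and the later time point, and 48.2 ± 4.81% and 45.8 ± 5.72% in obese tumors (SD, n = 4 each). Junb, a weaker activator that can restrain Jun, held 34.01 ± 4.02%, 35.9 ± 7.22%, 27.9 ± 1.98% and 34.3 ± 3.02% in the same order. Jun held the remainder, between 19.8% and 25.6% on average. The summed level of the family was 154.9 ± 19.0 TPM in lean tumors before therapy and 198.6 ± 66.7 TPM in obese tumors after ETS, with overlapping ranges (135.0 to 180.5 and 129.7 to 289.9 TPM).

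**Figure D3:**
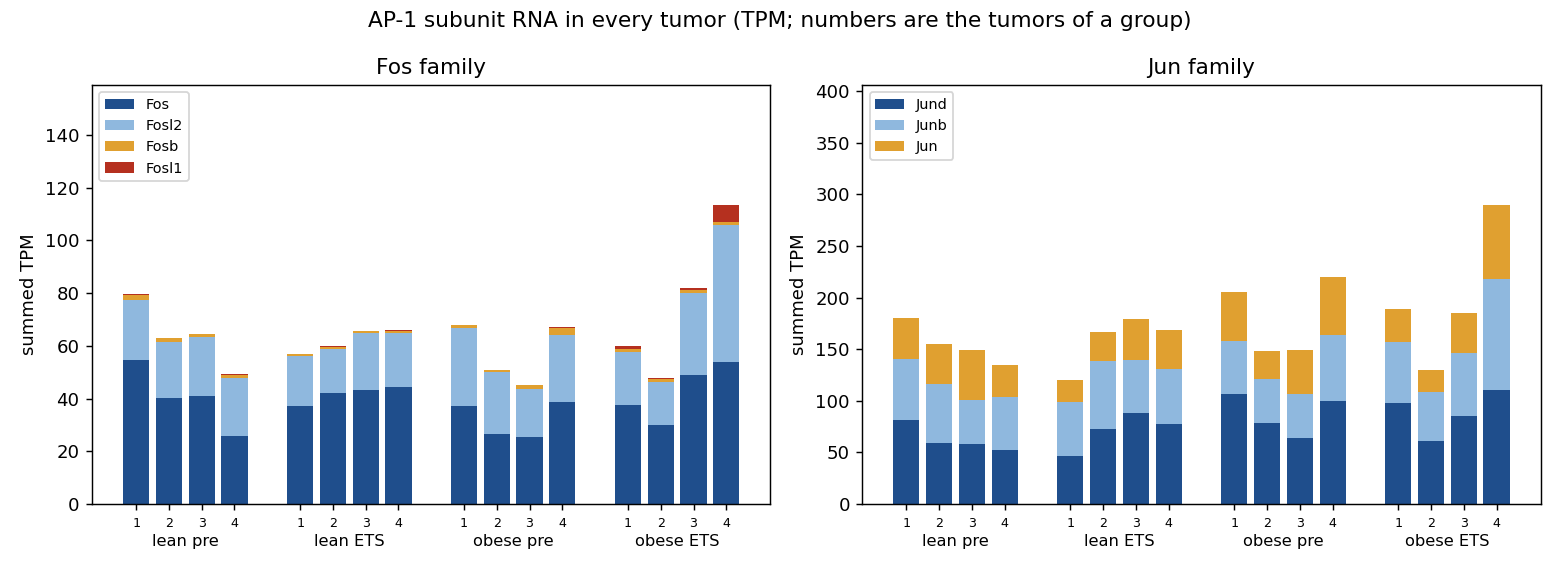
Summed TPM of the Fos family (left) and the Jun family (right) in each of the 16 tumors, stacked by gene. Fos and Fosl2 fill nearly all of the Fos family in every tumor, Fosl1 is visible mainly in tumor 4 of the obese ETS group, and that tumor has the highest sum of both families (113.5 and 289.9 TPM).

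Junb had log2 fold changes of 0.46 (SE 0.22, edgeR adjusted p = 0.105) in lean and 0.52 (SE 0.22, adjusted p = 0.0769) in obese tumors after ETS. In obese tumors it was called without tumor 4 of the group before therapy (0.68, adjusted p = 0.0382) or without tumor 2 of the ETS group (0.63, adjusted p = 0.0474), and was at 0.27 (adjusted p = 0.279) without tumor 4 of the ETS group. Jund had a log2 fold change of 0.53 (SE 0.23, adjusted p = 0.075) after ETS in lean tumors and a log2 difference of 0.59 (SE 0.23, adjusted p = 0.074) between obese and lean tumors before therapy. Both of these were called without tumor 1 of the lean group before therapy, at 0.75 (adjusted p = 0.0147) and 0.81 (adjusted p = 0.0167), and the former also without tumor 1 of the lean ETS group, at 0.66 (adjusted p = 0.0329). Jun was at 20.9 to 71.9 TPM over all tumors, with log2 fold changes of 0.05 (SE 0.29) in lean and -0.02 (SE 0.29) in obese tumors and overlap in every comparison. For these genes the depth was not limiting, with at least 1893 counts in every tumor, and the spread between tumors set the precision.

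Ier2 was at 36.5, 48.9, 38.2 and 35.8 TPM in lean tumors before therapy and at 20.3, 26.1, 25.4 and 27.2 TPM after ETS. The groups did not overlap in TPM but did in CPM. The log2 fold change was -0.31 by edgeR (SE 0.14, adjusted p = 0.0832) and -0.66 with limma on log2(TPM + 1) (adjusted p = 0.000952), so that the call for Ier2 depended on the scale. Without tumor 2 of the lean ETS group edgeR gave -0.40 (adjusted p = 0.0426). In obese tumors Ier2 was at 26.6 to 38.3 TPM before therapy and at 23.0 to 29.0 TPM after ETS (log2 fold change -0.20, SE 0.14, edgeR adjusted p = 0.273).

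**Figure D4:**
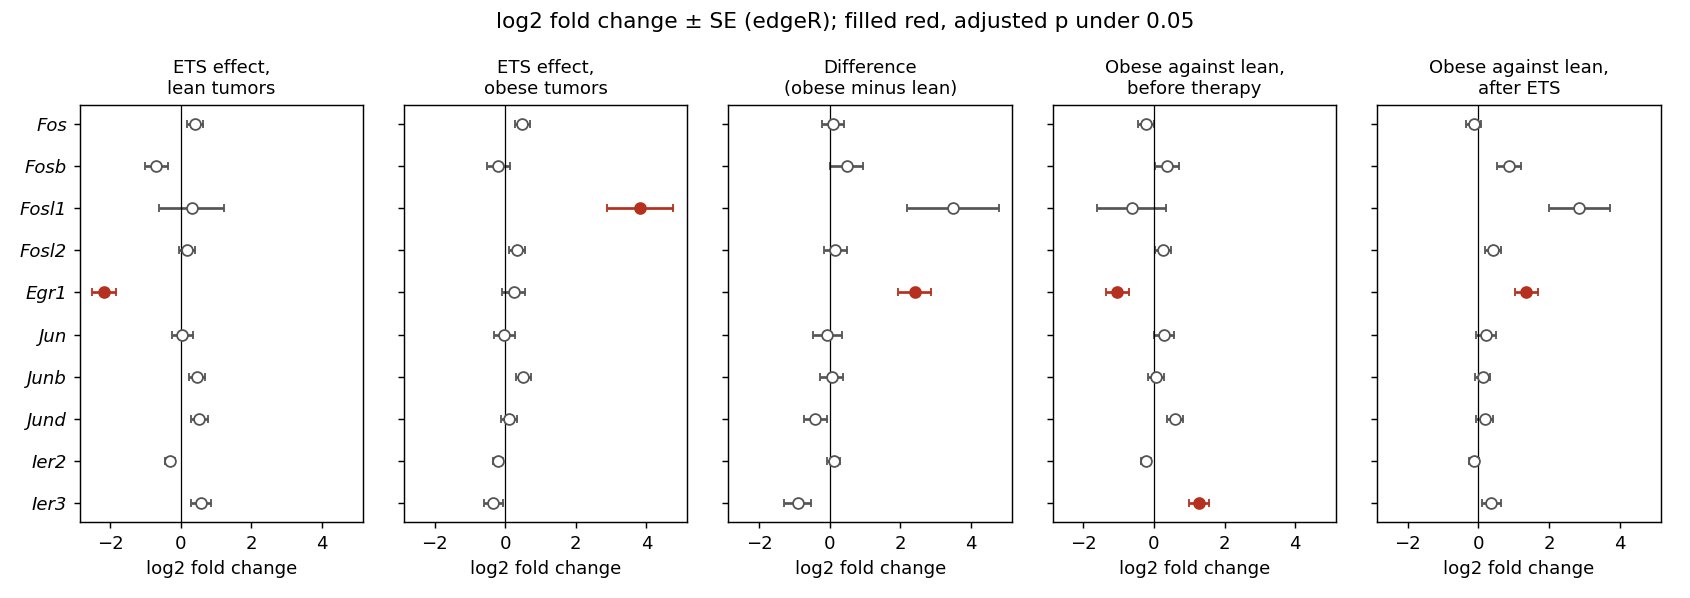
log2 fold change of each of the 10 genes with its SE (edgeR) in the 5 comparisons, on a common horizontal axis. Filled red points passed an adjusted p under 0.05. They are Egr1 in every comparison but the ETS effect in obese tumors, Fosl1 in that comparison, and Ier3 between hosts before therapy.

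The median log2 fold change of the 10 members was 0.25 after ETS in lean and 0.18 in obese tumors, against -0.01 and 0.01 over all genes tested. With group means removed, only the spread among the 4 tumors of a group counted. The log2 CPM of several AP-1 genes and of Ier3 then varied together over the 16 tumors, and genes of a tumor share its library and depth. Pearson's r was highest for Fosl1 with Junb (0.82), Jun with Ier3 (0.80) and Fos with Jund (0.79). Other AP-1 pairs were lower, down to 0.099 for Fosb with Fosl2. With the AP-1 genes, Egr1 ranged from 0.0034 (Jund) to 0.49 (Jun). Without tumor 4 of the obese ETS group these were 0.72, 0.68, 0.78, 0.20, -0.17 and 0.19, in the same order. Egr1 with the AP-1 genes then ranged from -0.45 (Fosl2) to 0.35 (Fosb), and the lowest AP-1 pair was Fosl1 with Jun (0.15). How far Egr1 was set apart from the AP-1 genes thus depended on that tumor. Egr1 varied most with Ier2 among the members (0.62, and 0.67 without that tumor).

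Among 13306 other genes with a mean of at least 1 CPM, those most like Ier3 over the 16 tumors were Zfp395 (r = 0.965), Gzf1 (0.957) and Ccng2 (0.954). With group means removed they were Elmsan1 (0.941), Ddit4 (0.931), which is induced by stress and low oxygen, and Ppp1r3b (0.931). Those most like Egr1 over the 16 tumors were Gm16464 (0.893), Zc3h12a (0.869), a ribonuclease of inflammatory RNAs, and Map3k8 (0.868), a kinase upstream of ERK in immune cells. With group means removed they were Rps23-ps1 (0.883), Rps23-ps2 (0.851) and Zfp330 (0.843). Jun was then most like Ccn1 (0.934), a matrix protein gene, and Fos most like Gstm1 (0.923). Fosl1 was most like Saa3 (0.912 over the 16 tumors), an acute phase gene. These were picked as the highest of many values and describe these 16 tumors only.

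Other immediate early genes were counted in a list of 46, of which 44 were tested. After ETS, 5 rose and 13 fell in lean tumors (median log2 fold change -0.33), against 12 rises and 2 falls in the obese host (median 0.29). The shares over all genes tested were 21% higher and 22.8% lower in lean tumors, against 21.2% higher and 19% lower in the obese host. For 12 of the 44 the ETS effect was higher in the obese host, and for 0 it was lower, against 10.1% of all genes higher and 6.35% lower (median difference 0.64, against -0.05 over all genes tested). With limma on log2(TPM + 1), an alternative for the related lists that was chosen after seeing the data, the rises and falls numbered 1 and 24 in the lean host, 8 and 2 in the obese host and 15 and 0 for the difference. Over all genes the share of calls that were rises went from 48.03% to 15.7% in lean tumors, from 52.8% to 43.6% in obese tumors and from 61.3% to 90.8% for the difference.

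The 12 genes with a called difference were Egr2, Egr3, Klf2, Sgk1, Cebpb, Socs3, Zfp36, Csrnp1, Ier5, Zfp36l2, Trib1 and Mcl1. Klf2, a factor of endothelial and myeloid cells, had a difference of 2.33 (SE 0.57, edgeR adjusted p = 0.0117). Cebpb, which codes for a bZIP factor of myeloid and fat cells, fell by 2.05 on the log2 scale in lean tumors (SE 0.50, adjusted p = 0.00465). Sgk1, a glucocorticoid-induced kinase, rose by 1.54 in obese tumors (SE 0.32, adjusted p = 0.00174). Host cell markers moved the same way. The ETS effect was higher in the obese host for 9 of 10 macrophage, 9 of 9 fibroblast and 5 of 8 endothelial markers, and lower for 0 of each. Over all genes it was higher for 10.1% and lower for 6.35%. The part of host cells in these genes was not tested. Without tumor 2 of the lean group before therapy, tumor 4 of the lean ETS group or tumor 1 of the obese group before therapy, 7 of the 44 had a called difference, and without tumor 4 of the obese ETS group 10 had.

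Other genes of the list changed without a called difference between hosts. Hes1, a Notch target, rose by 1.51 (SE 0.23, edgeR adjusted p = 0.000185) and Ier5l by 1.04 (SE 0.30, adjusted p = 0.0118) in lean tumors. Btg2, a p53 target that slows division, rose in both hosts, by 0.75 in lean (adjusted p = 0.017) and by 1.62 in obese tumors (SE 0.24, adjusted p = 0.000157). Myc fell in both (-0.80, adjusted p = 0.00892, and -0.71, adjusted p = 0.0188), as did the nuclear receptor gene Nr4a3 (-0.55, adjusted p = 0.0111, and -0.66, adjusted p = 0.00444). The differences were those of Hes1 (-0.93, adjusted p = 0.0631), Ier5l (-0.41, adjusted p = 0.55), Btg2 (0.87, adjusted p = 0.0837), Myc (0.09, adjusted p = 0.879) and Nr4a3 (-0.11, adjusted p = 0.781). Before therapy, 6 of the 44 were higher and 8 lower in the obese host, among them Hes1 (1.25, adjusted p = 0.00116), Klf10 (1.02, adjusted p = 0.0172) and Socs3 (-1.54, adjusted p = 0.000283). The shares over all genes tested were 13.5% higher and 12.9% lower. After ETS, 8 were higher and 1 was lower in obese tumors, with Atf3 at 2.11 (adjusted p = 0.0337), Cebpb at 1.97 (adjusted p = 0.0376) and Nr4a1 at -0.46 (adjusted p = 0.0489). Over all genes tested 3.28% were higher and 2.3% lower in this comparison after ETS. None of the 44 was called without tumor 3 or 4 of the lean ETS group or without tumor 4 of the obese ETS group, 1 without tumor 1 and 2 without tumor 2 of the lean ETS group, and 17 without tumor 2 of the obese ETS group.

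**Figure D5:**
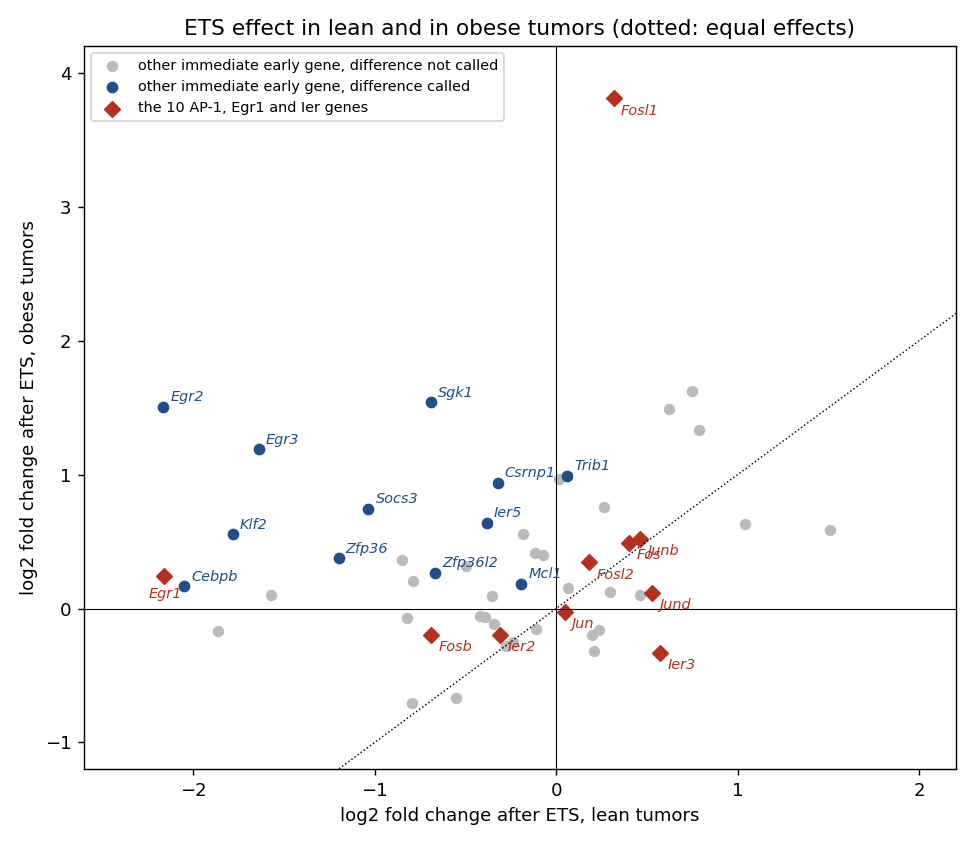
log2 fold change after ETS in lean tumors (horizontal) and in obese tumors (vertical) for 44 other immediate early genes (circles) and the 10 members (red diamonds). Blue circles mark the 12 genes whose difference between hosts passed an adjusted p under 0.05, all above the dotted line of equal effects. Egr1 lies near Cebpb at left, and the other members except Fosl1 lie within 0.91 log2 units of that line.

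The bZIP partners that can pair with Fos or Jun proteins fell in lean tumors after ETS in 9 of 13 and rose in 0, against 3 rises and 3 falls in obese tumors. Of all genes, 22.8% fell in lean tumors and 19% in the obese host. Batf2, an interferon-induced partner of Jun proteins, changed by -4.66 in lean (SE 0.48, edgeR adjusted p = 7.71e-06) and by 1.51 in obese tumors (SE 0.48, adjusted p = 0.0218), and was lower by 6.56 on the log2 scale in obese than in lean tumors before therapy (adjusted p = 7.6e-07). Creb5 fell by 2.40 in lean tumors (SE 0.41, adjusted p = 0.000364), and Atf2, the partner of Jun at TGACGTCA-like sites, fell in both hosts, by 0.42 in lean (SE 0.11, adjusted p = 0.00646) and by 0.48 in obese tumors (SE 0.11, adjusted p = 0.00312). Batf2 averaged 68.6 CPM in lean tumors before therapy and at most 2.71 CPM in any other group, and Creb5 4.67 CPM against at most 1.65 CPM. T and NK cell markers were likewise highest in lean tumors before therapy (38.1 to 66.2 CPM in sum, at most 3.54 CPM elsewhere), and 7 of 10 macrophage markers fell in lean tumors. The part of host cells in the bZIP genes was not tested.

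Of 20 listed AP-1 target genes 17 were tested, and 4 rose and 3 fell after ETS in the lean host, against 9 rises and 0 falls in obese tumors. Over all genes tested 21% rose and 22.8% fell in the lean host, against 21.2% and 19% in the obese host, so that the lean count is close to the share of all genes. On log2(TPM + 1) limma gave 3 rises and 4 falls in lean tumors and again 9 and 0 in the obese host. Ccnd1, which codes for the G1 cyclin D1, rose in both hosts, by 1.27 in lean (SE 0.12, edgeR adjusted p = 5.26e-06) and 1.64 in obese tumors (SE 0.13, adjusted p = 4.78e-06). Plau, the urokinase gene, fell by 1.21 on the log2 scale in lean tumors (SE 0.30, adjusted p = 0.00459), with a difference between hosts of 3.05 (adjusted p = 0.000223). Ccl2, a monocyte-attracting chemokine, fell by 1.52 in lean tumors (SE 0.46, adjusted p = 0.0152), with a difference of 3.92 (adjusted p = 0.001). Spp1, the osteopontin gene, rose by 2.46 (SE 0.31, adjusted p = 5.92e-05) and Mmp3, a stromal protease gene, by 3.96 (SE 1.31, adjusted p = 0.0262) in obese tumors. Several of these are also genes of macrophages or fibroblasts, whose markers moved the same way.

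Upstream of the members, 9 of 23 kinases and factors rose and 7 fell in lean tumors after ETS, against 6 rises and 6 falls in obese tumors. The lean split depended on the scale, with 1 rise and 13 falls by limma on log2(TPM + 1), against 4 and 6 in the obese host. Over all genes edgeR called 21% higher and 22.8% lower in lean tumors, against 21.2% and 19% in obese tumors. Mapk3, which codes for ERK1, rose by 0.89 in lean (SE 0.14, edgeR adjusted p = 0.000178) and by 0.41 in obese tumors (SE 0.14, adjusted p = 0.0282). Elk4, a ternary complex factor, fell by 1.15 in lean tumors (SE 0.23, adjusted p = 0.00113), and its difference between hosts was not called (0.69, adjusted p = 0.159). Creb1 fell in both hosts, by 0.64 on the log2 scale in lean (SE 0.09, adjusted p = 0.000122) and 0.85 in obese tumors (SE 0.09, adjusted p = 2.86e-05). For these genes 2 differences between hosts were called, Mrtfb (0.66, adjusted p = 0.0471) and Mapk9 (0.33, adjusted p = 0.0147), which codes for the Jun kinase JNK2.

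Of 14 genes of ERK feedback and output, 3 rose and 1 fell in lean tumors after ETS, against 5 rises and 2 falls in the obese host. The 4 of 14 called in lean tumors lie below the 43.8% of all genes, and on log2(TPM + 1) limma gave 2 rises and 5 falls there. Spred3 rose in both hosts, by 0.97 in lean (SE 0.11, edgeR adjusted p = 2.26e-05) and by 0.95 in obese tumors (SE 0.11, adjusted p = 4.5e-05). The ERK phosphatase gene Dusp5 fell by 0.81 in lean tumors (SE 0.24, adjusted p = 0.0126), with a called difference between hosts of 1.39 (adjusted p = 0.0101). Spred1 and Spred2, inhibitors of Ras signaling, fell in obese tumors by 0.24 (adjusted p = 0.0158) and 0.26 (adjusted p = 0.0442) on the log2 scale. Heat shock genes, which share stress triggers with the members, had 1 rise and 2 falls of 12 in lean tumors, against 2 and 5 in the obese host. The shares over all genes were 21% higher and 22.8% lower in lean tumors, against 21.2% and 19% in the obese host. On log2(TPM + 1) limma gave 1 rise and 7 falls in the lean host, against 2 and 5, so that the contrast between hosts depended on the scale. Hsph1 fell in both (-0.82, adjusted p = 0.000224, and -1.21, adjusted p = 2.58e-05), whereas Cryab rose in both (1.36, adjusted p = 3.12e-05, and 1.20, adjusted p = 0.000111).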

How the data were processed

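RNA of 16 B16F10 tumors was sequenced by the authors from poly(A)-selected, stranded libraries with paired reads of 101 bases. The submitters' processing notes name bcl2fastq 2.20.0, Trimmomatic, HISAT2 2.1.0, StringTie 2.1.3b and mm10. The authors deposited StringTie read counts per gene, not normalized, which were tested here. The deposited TPM values, normalized by the authors for length and depth, were used for levels and as an alternative, and the deposited FPKM values were not used. Whether counting used strand is not given in the sources used here.

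As the authors did, 29568 genes that lacked counts in some tumor were left out. The authors then added 1 to the counts, log2-transformed them, applied TMM and used edgeR's exact test. Here the other 16209 genes were instead tested on the counts themselves with edgeR 4.0.16 (R 4.3.3) by its quasi-likelihood test after TMM scaling, with a mean for each of 4 groups in 1 fit. The 5 comparisons were the ETS effect in each host, the obese minus the lean effect, and obese against lean before therapy and after ETS, with Benjamini-Hochberg adjustment over all genes. CPM are counts scaled to the TMM library size. Symbols and coordinates come from RefSeq's GRCm38.p6 table, which matched 45679 genes.

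The members, lists and tests were chosen with earlier results of these data known. From each related list the text names some of the genes with the largest rises and falls (up to 2 each per comparison) among called genes (adjusted p under 0.05) whose mean reached 1 CPM. Egr3, Csrnp1, Ier5, Mcl1, Trib1, Zfp36, Zfp36l2 and Ccdc85b were named after their values were seen. The single values of 1 listed gene are not reported here. In tests on simulated data for the lean comparison, edgeR recovered 85 of 97 genes changed 4-fold and 53 of 98 changed 2-fold, with 7 false calls among 15912 genes. Tumors of a group correlated at r = 0.970 to 0.992 in log2 CPM, and no pair differed by as little as sampling noise. Alternatives were other scalings, filters, tests (exact test on counts with 1 added, DESeq2 1.42.0, limma-voom 3.58.1), TPM, only the groups compared, a replicate block and each tumor left out.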

Additional observations from a re-analysis of the deposited data

Results flagged for a closer look

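In the obese ETS group, Fosl1 in tumor 4 (6.391 TPM) lay apart from the other 3 tumors by Dixon's test at its 95% limit for 4 samples, as did Junb in tumor 2 of the lean ETS group (66.02 TPM). With 40 groups of 4 tumors checked, chance alone gives about 1 such value in 20 groups. The ETS effect on Egr1 differed between hosts by the interaction term of the edgeR fit, at 2.405 on the log2 scale (adjusted p = 0.00247), with lower values in 4 of 4 lean tumors after ETS than in any lean tumor before therapy.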

How the results depend on the processing

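The calls for Egr1 in lean tumors, Egr1 between the ETS effects, Fosl1 in obese tumors and Ier3 and Egr1 before therapy held in every alternative of scaling, filter, test and unit run. Egr1 after ETS was lost with limma-voom and with only the 2 groups compared, both of which gave 0 members called. Against 1 member called in each, DESeq2 called 2 in lean tumors, 2 in obese tumors, 2 for the difference and 2 after ETS, and the exact test 2 after ETS. In lean tumors, limma called 3 on log2(TPM + 1) and 3 on log2(TPM + 0.1), and 2 were called with only the 2 groups compared. Without the exclusion of genes with a 0, 7 of the other immediate early genes were called for the difference and 3 after ETS, in place of 12 and 9.

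On log2(TPM + 1), which shifted the median of all genes by -0.35 in lean tumors, uncalled values changed sign. Fosl1 (-0.0029), Fosl2 (-0.18) and Jun (-0.33) did in lean tumors, Jun for the difference (0.17), Junb before therapy (-0.071), and Fos (0.00016) and Ier2 (0.039) after ETS. On log2(TPM + 0.1) these were -0.19 for Fosl2, -0.34 for Jun, 0.18 for the difference of Jun, -0.072 for Junb and 0.041 for Ier2. The cause of these changes was not tested.

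Same-numbered tumors correlated at -0.15 to 0.57, over 0.1 in 12 of 24 pairs, and each tumor's best match had its own number in 17 of 48 cases, so the numbers were not taken as pairs. With the replicate number as a block, 2 members were called in lean tumors, 2 for the difference and 2 after ETS, and calls among all genes after ETS went from 904 to 1683.

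With each tumor left out, the members called were 1 to 3 in lean tumors, 1 to 2 in obese tumors, 1 to 2 for the difference, 1 to 3 before therapy and 0 to 2 after ETS, and the other immediate early genes called were 15 to 24, 11 to 16, 7 to 16, 11 to 19 and 0 to 17. Uncalled values changed sign when a tumor was left out for Fosl1 (-0.072 to 0.64) and Jun (-0.058 to 0.18) in lean tumors. In obese tumors this held for Fosb (-0.43 to 0.26), Fosl2 (-0.011 to 0.52), Jun (-0.38 to 0.17), Jund (-0.0051 to 0.23) and Egr1 (-0.15 to 0.52). For the difference it held for Fos (-0.17 to 0.26), Fosl2 (-0.17 to 0.34), Jun (-0.40 to 0.13) and Junb (-0.16 to 0.23), before therapy for Fos (-0.40 to 0.036), Fosb (-0.094 to 0.62) and Junb (-0.095 to 0.19), and after ETS for Jun (-0.15 to 0.41) and Junb (-0.12 to 0.27).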
